A study of Homo sapiens with 6 samples.

Results

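The stress-induced basic leucine zipper (bZIP) factors described here are 10 of the 60683 genes in the count table: ATF4 itself (activating transcription factor 4) and 9 factors that pair with it or bind related DNA sites, ATF3, ATF5, DDIT3, CEBPB, CEBPG, CEBPD, JDP2, MAFF and BATF3. They were listed by name and matched by Ensembl identifier, and all 10 were among the 15321 genes that passed the filter on low counts. Transcripts were measured by RNA sequencing in RCC4, an established human renal carcinoma line that has lost the VHL tumour suppressor. The groups were RCC4 cells with ATF4 knocked out (ATF4 KO, n = 3) and the parental RCC4 cells, labelled wild type (n = 3), with no treatment stated for either. The labels give neither the method of the knockout, nor its origin from 1 clone or a pool, nor whether replicates came from separate cultures. P-values thus reflect the spread among these 6 libraries alone, possibly a technical one, and in bulk RNA fewer cells of a type and less RNA per cell cannot be told apart.

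ATF4 is the effector of the integrated stress response: when kinases phosphorylate the initiation factor eIF2, most translation drops while ATF4 mRNA is translated more. bZIP proteins bind DNA only as dimers, so what ATF4 does at a gene depends on which partner it has. Among its C/EBP partners, CEBPB, CEBPG and DDIT3 (also called CHOP) form heterodimers with it that bind composite C/EBP-ATF elements. In these elements one part resembles a C/EBP site and the other an ATF site. CEBPD is a further member of the C/EBP family. ATF3, ATF5, JDP2, BATF3 and MAFF belong to neighbouring bZIP branches that bind cAMP response elements (CRE), AP-1 sites or related sequences.

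Promoter sequences are shown first because 2 of the lower transcripts carried the core composite element close to a start site. RefSeq (GRCh38.p14) promoter windows reach 250 bases before and 50 bases after a start site, and 18 windows of 8 members were searched. No window of BATF3 or CEBPD was among these 18, so the sites below are not described for them. Both strands were searched for the composite element TGATGNAA and its strict form TGATGCAA, the CRE TGACGTCA, the AP-1 site TGANTCA and the C/EBP palindrome TTGCGCAA. The strict composite form is a subset of TGATGNAA. The 2 stretches below lie outside the annotated exons of their gene, on the plus strand, and the capitals mark the match. JDP2 is shown from chr14:75427850-75428021, with the match beginning 16 bases before the start site, and CEBPG from chr19:33373896-33374112, with the match beginning 42 bases before the start site.
JDP2: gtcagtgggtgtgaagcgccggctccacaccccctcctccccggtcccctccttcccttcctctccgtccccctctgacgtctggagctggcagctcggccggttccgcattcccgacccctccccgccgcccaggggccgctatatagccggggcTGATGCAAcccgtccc
CEBPG: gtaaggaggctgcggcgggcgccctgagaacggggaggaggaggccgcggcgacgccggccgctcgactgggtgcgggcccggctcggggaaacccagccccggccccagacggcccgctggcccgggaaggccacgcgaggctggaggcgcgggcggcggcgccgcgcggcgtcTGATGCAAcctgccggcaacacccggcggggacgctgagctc
Shorter sites are shown for the other members that held a match, read along the gene, with the match in capitals. ATF3 held a looser composite form 191 bases before a start site, DDIT3 an AP-1 site 238 bases before one of its start sites, and ATF5 an AP-1 site 188 bases before one. MAFF held a CRE 54 bases before a start site, and the matches of MAFF and ATF5 lie in annotated UTR exons.
ATF3: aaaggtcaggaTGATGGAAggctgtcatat
DDIT3: gcgcgcgcgcaTGACTCAcccacctcctc
ATF5: ggagagtgctgTGACTCAtgctggactct
MAFF: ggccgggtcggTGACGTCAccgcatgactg
Of all 35116 RefSeq windows, 0.866% held TGATGCAA, 3.62% TGATGNAA, 1.85% the CRE, 7.71% the AP-1 site and 0.151% the C/EBP palindrome. Counted by gene, as the members are, the shares of 27305 genes were 1.08%, 4.46%, 2.25%, 9.37% and 0.172% in that order. A match is a description of letters, not evidence that a factor binds there, and ATF4 and CEBPB held none of these letters in their windows.

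Library totals ranged from 41002611 to 46755358 counts in ATF4 KO samples and 42502027 to 44524187 counts in parental samples, and 3 counts corresponded to 0.0634 to 0.0729 CPM, the library-scaled count used throughout. Comparing counts of library pairs, chi-square divided by its degrees of freedom (about 1 for sampling noise alone) was 3.59 to 5.79 within a group and 37.9 to 44.1 between groups, and the 6 libraries were used as separate samples. Markers of clear cell renal carcinoma or renal epithelium summed to 7414 to 7599 CPM in ATF4 KO and 6557 to 6955 CPM in parental samples. Most of that was VIM, and all 10 markers checked were tested. Of these, 4 were higher in ATF4 KO (CA9 at a log2 fold change of 2.55, NDUFA4L2 at 0.77, CDH6 at 0.36 and VIM at 0.10) and 2 were lower (PAX8 at -0.15 and KRT18 at -0.09). Leukocyte markers summed to 0.465 to 0.602 CPM in ATF4 KO and 0.296 to 0.570 CPM in parental samples, and PTPRC had between 0 and 4 counts in any sample. Endothelial markers summed to 0.0846 to 0.172 CPM in ATF4 KO and 0.0237 to 0.182 CPM in parental samples. Of 4 stromal markers, COL1A1 and PDGFRB made up nearly the whole sum (51.1 to 51.7 CPM in ATF4 KO, 58.5 to 72.7 CPM in parental), while DCN and LUM had 0 or 1 count in every sample. PDGFRB (-1.06, edgeR adjusted p = 1.04e-12) and COL1A1 (-0.31, adjusted p = 0.0062) were lower in ATF4 KO, and their part in the members' values was not tested.

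The comparison asks how the transcripts of ATF4 and of its partners and competitors differed between ATF4 KO and parental cells. Of the 10 members, 7 were lower in ATF4 KO cells (edgeR quasi-likelihood test, adjusted p below 0.05 over all 15321 tested genes), against a background of 20.8% of all tested genes called lower. None was called higher, against a background of 21.2%, and no member reached an unadjusted p below 0.05 in that direction. The 7 lower members were JDP2, MAFF, CEBPG, CEBPB, DDIT3, ATF5 and ATF4, and ATF3, CEBPD and BATF3 did not pass the test. The 2 groups of samples did not overlap for 9 members, where 49.6% of all tested genes did not overlap. The median log2 fold change, ATF4 KO over parental, was -0.35 over the members and 0.0077 over all tested genes. CEBPD was the member whose groups overlapped.

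**Figure D1:**
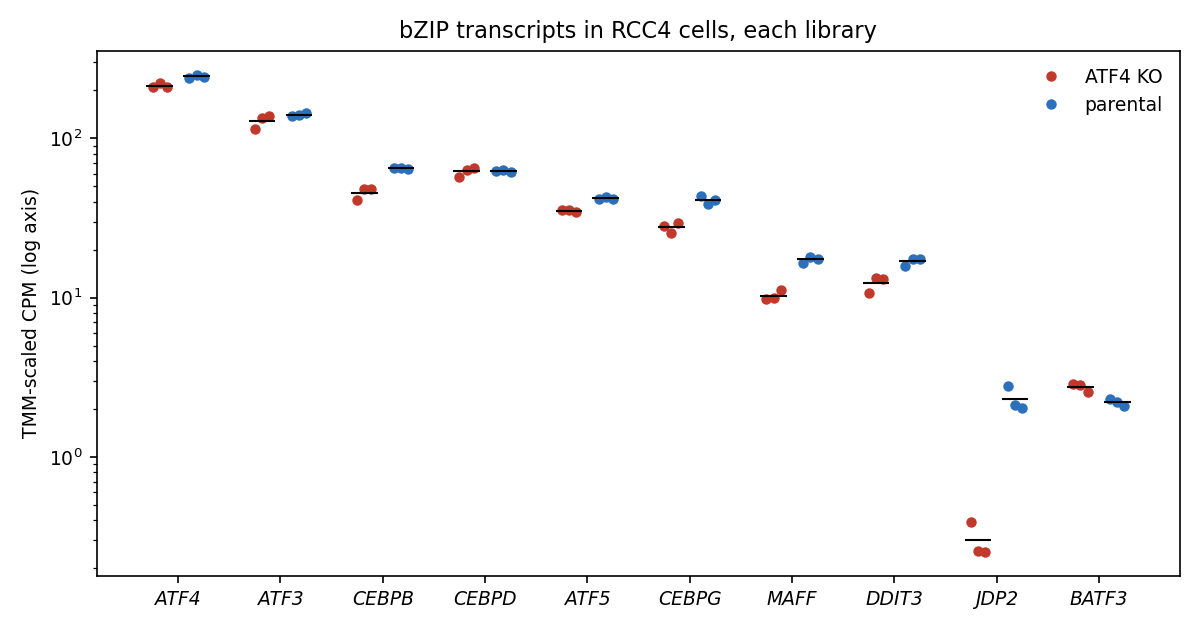
TMM-scaled CPM of each bZIP transcript (log axis) in every library, with red points for ATF4 KO, blue points for parental and a black line at each group mean. JDP2 showed the widest gap, at 0.254 to 0.389 CPM in ATF4 KO against 2.02 to 2.78 CPM in parental samples, while the points of CEBPD overlapped.

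ATF4, the targeted gene (chromosome 22, 39519695 to 39522685, GRCh38), kept most of its transcript. Its level was 210, 223 and 209 CPM in ATF4 KO replicates 1 to 3, against 239, 251 and 243 CPM in parental replicates 1 to 3. All 3 ATF4 KO samples lay below all 3 parental samples. Gene-level counts carry no information on an altered reading frame, so this level neither checks nor contradicts the knockout label. ATF4 averaged 214 ± 8.04 CPM in ATF4 KO and 244 ± 5.97 CPM in parental samples (SD, n = 3 each), and its log2 fold change was -0.19 (SE 0.029, edgeR adjusted p = 3.19e-07). The 205 other tested genes within 10 Mb had a median log2 fold change of -0.27, so the transcript fell no further than its chromosomal surroundings. With that median removed, ATF4 stood at 0.08 (edgeR adjusted p = 0.0328), in the opposite direction. The ATF4 pseudogenes collected few reads, with 0 to 10 counts per sample each.

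The 3 C/EBP partners named above, CEBPB, CEBPG and DDIT3, were lower, while CEBPD, the other C/EBP member, was not called. CEBPG (chromosome 19, 33373330 to 33382686), a short C/EBP protein without an activation domain of its own, had 28.2, 25.5 and 29.6 CPM in ATF4 KO samples, against 43.1, 38.9 and 41.0 CPM in parental samples. Its highest ATF4 KO sample stayed well below its lowest parental sample. The log2 fold change was -0.56 (SE 0.054, edgeR adjusted p = 6.97e-13), and its 214 neighbours had a median of -0.03.

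CEBPB (chromosome 20, 50190734 to 50192689), an activator of acute-phase and differentiation genes that is made as activating and inhibitory protein forms from a single mRNA, had 41.0, 47.9 and 48.0 CPM in ATF4 KO samples, against 65.4, 65.1 and 64.1 CPM in parental samples. The parental samples were close together and the ATF4 KO samples all lower, with replicate 1 the lowest. CEBPB averaged 45.6 ± 4.05 CPM in ATF4 KO and 64.8 ± 0.644 CPM in parental samples (SD, n = 3 each), and its log2 fold change was -0.50 (SE 0.046, edgeR adjusted p = 3.16e-12). Its 118 neighbours on chromosome 20 had a median of -0.17, and with that removed CEBPB stood at -0.34 (edgeR adjusted p = 1.16e-07). Its exons overlap those of the opposite-strand CEBPB-AS1, which held 16 to 36 counts in any sample.

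DDIT3 (chromosome 12, 57516588 to 57521737), the stress-induced C/EBP protein tied to cell death in long endoplasmic reticulum stress, had 10.7, 13.3 and 13.1 CPM in ATF4 KO samples, against 15.7, 17.4 and 17.6 CPM in parental samples. Replicate 1 was the lowest of each group, and the groups did not overlap. The log2 fold change was -0.44 (SE 0.077, edgeR adjusted p = 4.15e-06), and -0.36 without ATF4 KO replicate 1 (adjusted p = 0.000361). DDIT3 shares exon bases with the opposite-strand genes MARS1 and MBD6. MARS1, the methionyl-tRNA synthetase, had 2767, 3103 and 2822 counts in ATF4 KO samples and 4148, 4379 and 4574 counts in parental samples, so it was lower in the same samples. The strand setting used for counting is not given in the sources used here. Of 394 genes lying wholly within exons of a well-counted opposite-strand gene, 100 had 0 counts over the 6 samples, 294 held at least 1 count and 33 held at least 100, so these counts do not settle the setting. How far reads of the overlap enter the DDIT3 value was not tested.

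CEBPD, an acute-phase C/EBP factor on chromosome 8 (47736909 to 47739086), showed no difference of that kind. It had 57.3, 63.4 and 65.3 CPM in ATF4 KO samples, against 62.5, 63.4 and 61.0 CPM in parental samples. The ATF4 KO samples held both the lowest and the highest value. The log2 fold change was -0.0067 (95% interval -0.09 to 0.08, edgeR adjusted p = 0.919), so a fall as large as that of CEBPB, CEBPG or DDIT3 lay outside the interval. The 3 C/EBP genes without DDIT3 were then compared per kilobase of exon, the scale on which levels of different genes can be set side by side.

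On that scale the order of CEBPB and CEBPD differed between the groups. CEBPD averaged 28.5 CPM per kb in ATF4 KO and 28.6 CPM per kb in parental samples, while CEBPB averaged 23.3 CPM per kb in ATF4 KO and 33.2 CPM per kb in parental samples. The level of CEBPD over that of CEBPB was 1.26, 1.19 and 1.22 in ATF4 KO samples, against 0.859, 0.876 and 0.855 in parental samples. CEBPD was therefore the higher of the pair in every ATF4 KO sample and the lower in every parental sample. The log2 ratio was higher by 0.50 in ATF4 KO, with an exact two-sided permutation p of 0.10, the smallest that 3 against 3 samples can give. This pair was picked after its values were seen. Of the summed level of CEBPB, CEBPG and CEBPD, CEBPD made up 49.0 ± 0.0465% in ATF4 KO and 40.3 ± 0.550% in parental samples (SD, n = 3 each). CEBPB made up 40.1 ± 1.09% in ATF4 KO and 46.6 ± 0.156% in parental samples, and CEBPG 10.9 ± 1.10% in ATF4 KO and 13.1 ± 0.625% in parental samples.

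**Figure D2:**
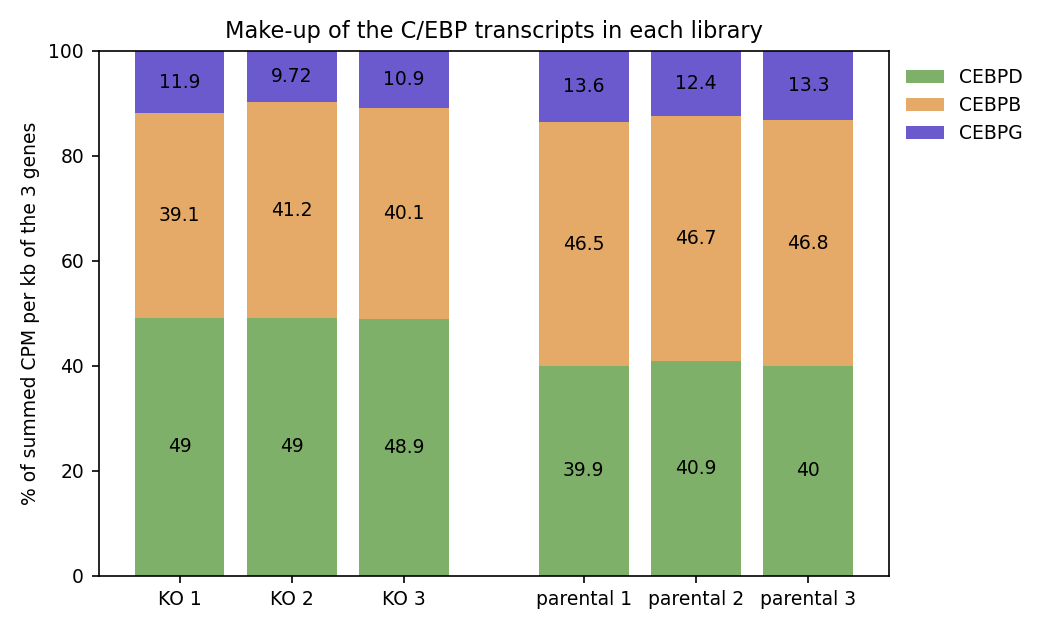
Share (%) of CEBPD, CEBPB and CEBPG in their summed CPM per kb of exon, one bar per library, ATF4 KO left and parental right. CEBPD took 48.9 to 49.0% of the bar in ATF4 KO samples and 39.9 to 40.9% in parental samples.

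JDP2 (chromosome 14, 75427716 to 75474111), a repressor that pairs with JUN and ATF proteins and recruits histone deacetylases, was the member with the largest change. It had 16, 12 and 12 counts in ATF4 KO samples, against 121, 93 and 85 counts in parental samples. In CPM these were 0.389, 0.258 and 0.254 in ATF4 KO samples, against 2.78, 2.12 and 2.02 in parental samples. Replicate 1 was the highest of each group, and the highest ATF4 KO value lay far under the lowest parental value. The log2 fold change was -2.94 (SE 0.27, edgeR adjusted p = 1.46e-13), 7.70-fold lower in ATF4 KO. It ranked 18 from the lowest of the 15321 tested genes. Its 105 neighbours had a median log2 fold change of 0.07, and JDP2-AS1, which overlaps it on the opposite strand, held 0 to 3 counts in any sample. The JDP2 transcript was the scarcest member per kilobase in both groups, at 0.0482 CPM per kb in ATF4 KO and 0.370 CPM per kb in parental samples.

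MAFF (chromosome 22, 38200767 to 38216511), a small MAF protein without an activation domain that pairs with NRF2 and BACH1, had 9.77, 9.98 and 11.2 CPM in ATF4 KO samples, against 16.6, 18.0 and 17.5 CPM in parental samples. The groups were well apart. MAFF had a log2 fold change of -0.75 (SE 0.076, edgeR adjusted p = 3.73e-12). Its 215 neighbours, on the same chromosome as ATF4, had a median of -0.27. With that median removed, MAFF stood at -0.48 (edgeR adjusted p = 6.84e-07).

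ATF5 (chromosome 19, 49928702 to 49933935), an ATF4 relative under similar translational control that is linked to the mitochondrial stress response, had 35.7, 35.3 and 34.4 CPM in ATF4 KO samples, against 41.9, 42.6 and 41.4 CPM in parental samples. Both groups were tight and apart. This gave a log2 fold change of -0.26 (SE 0.047, edgeR adjusted p = 1.01e-05), with a neighbour median of -0.0013 over 439 genes. ATF5 overlaps exons of the opposite-strand genes NUP62 (5085 to 5833 counts in ATF4 KO and 4571 to 4673 counts in parental samples) and IL4I1 (304 to 347 counts in ATF4 KO and 481 to 511 counts in parental samples).

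ATF3 (chromosome 1, 212565334 to 212620777), an early stress gene that mostly represses as a homodimer, had 114, 134 and 137 CPM in ATF4 KO samples, against 138, 141 and 144 CPM in parental samples. The groups did not overlap, but 2 of the ATF4 KO samples lay just under the parental ones and replicate 1 stood lower. ATF3 had a log2 fold change of -0.13 (SE 0.073, 95% interval -0.31 to 0.05, edgeR adjusted p = 0.224), and -0.06 without ATF4 KO replicate 1 (adjusted p = 0.175). It passed the threshold with limma-voom (adjusted p = 0.0167), without the low-count filter (adjusted p = 0.00112), and without ATF4 KO replicate 3 (log2 fold change -0.18, adjusted p = 0.0175). It also passed with a term for replicate number in the edgeR fit (log2 fold change -0.13, adjusted p = 0.00215). The call on ATF3 therefore depended on the tool, the filter, the replicate term and the libraries used.

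BATF3 (chromosome 1, 212686418 to 212699985), an AP-1 type factor best known from dendritic cells, had 2.87, 2.82 and 2.54 CPM in ATF4 KO samples, against 2.30, 2.21 and 2.09 CPM in parental samples. It was the member with every ATF4 KO sample above every parental sample. Its log2 fold change of 0.32 did not pass the test (SE 0.16, 95% interval -0.0055 to 0.64, unadjusted p = 0.0539, edgeR adjusted p = 0.11).

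**Figure D3:**
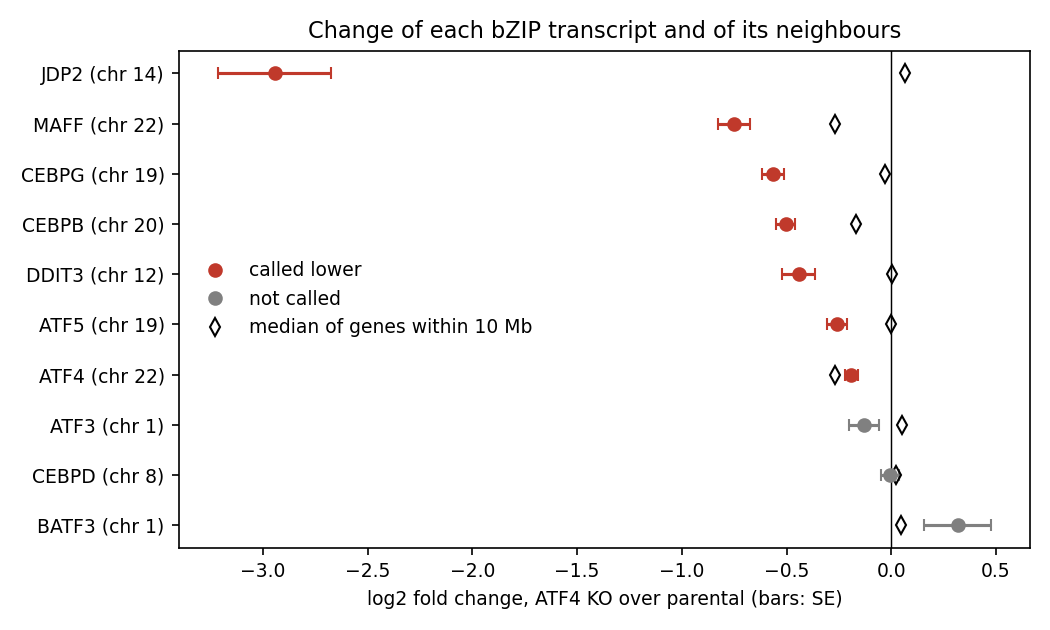
Log2 fold change, ATF4 KO over parental, of each bZIP transcript (filled circles with SE bars, red where called lower and grey where not called) and the median of the other tested genes within 10 Mb (open diamonds). MAFF and ATF4 share a chromosome 22 neighbourhood with a median of -0.27, where ATF4 (-0.19) lay above its diamond and MAFF (-0.75) below it.

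The relative abundance of the members was then compared per kilobase. ATF4 was the most abundant, at 85.2 CPM per kb in ATF4 KO and 97.2 CPM per kb in parental samples, followed by ATF3 at 31.8 CPM per kb in ATF4 KO and 34.9 CPM per kb in parental samples. ATF5, DDIT3, CEBPG, MAFF, BATF3 and JDP2 followed CEBPB and CEBPD in that order in both groups. Among neighbours in that order, ATF3 and CEBPD in ATF4 KO were the 1 pair with overlapping ranges. These levels depend on the length used: per kilobase of the longest transcript, ATF3 stood at 61.2 CPM per kb in ATF4 KO and 67.0 CPM per kb in parental samples and MAFF at 3.14 CPM per kb in ATF4 KO and 5.28 CPM per kb in parental samples. The order of the 10 genes was the same on that length in each group, and no neighbours overlapped there. The summed level of the 10 members was 199 ± 9.55 CPM per kb in ATF4 KO and 235 ± 3.14 CPM per kb in parental samples (SD, n = 3 each, exact two-sided permutation p = 0.10, the smallest possible).

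Set against ATF4 itself, the partners did not all move alike. CEBPB amounted to 27.4 ± 2.21% of the ATF4 level in ATF4 KO and 34.1 ± 0.896% in parental samples (SD, n = 3 each). CEBPG amounted to 7.40 ± 0.810% in ATF4 KO and 9.58 ± 0.718% in parental samples. CEBPD amounted to 33.4 ± 2.33% in ATF4 KO and 29.4 ± 0.601% in parental samples. The ATF4 transcript in the denominator was itself lower in ATF4 KO (log2 fold change -0.19), while CEBPD was not (-0.0067). The higher CEBPD ratio thus reflects the lower ATF4 level, not more CEBPD. DDIT3, CEBPB, CEBPG, JDP2 and MAFF were lower relative to ATF4 in every ATF4 KO sample than in any parental sample, CEBPD and BATF3 were higher, and ATF3 and ATF5 overlapped. Each of the 7 ratios that did not overlap had the smallest exact two-sided permutation p possible, 0.10, and 0.129 after adjustment over the 9 ratios, so none could pass the threshold in this design.

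Within the ATF4 KO group, replicate 1 stood apart for some members and not for others. Its log2 CPM minus the group mean was 0.35 for JDP2, -0.20 for DDIT3, -0.16 for ATF3, -0.15 for CEBPB and -0.11 for CEBPD, members named here after their values were seen. ATF5, CEBPG and BATF3 were also above the group mean there, by 0.02 to 0.07, and ATF4 and MAFF were below it, at -0.03 and -0.07. In that sample 17.4% of all tested genes deviated as far as ATF3 and 25.2% as far as CEBPD, and among the 9378 with a mean of 10 CPM or more 0.917% and 4.64% did. That library was also the smallest, and no part of its depth in these values was tested. CEBPB and DDIT3 were called lower without it, at -0.44 and -0.36.

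**Figure D4:**
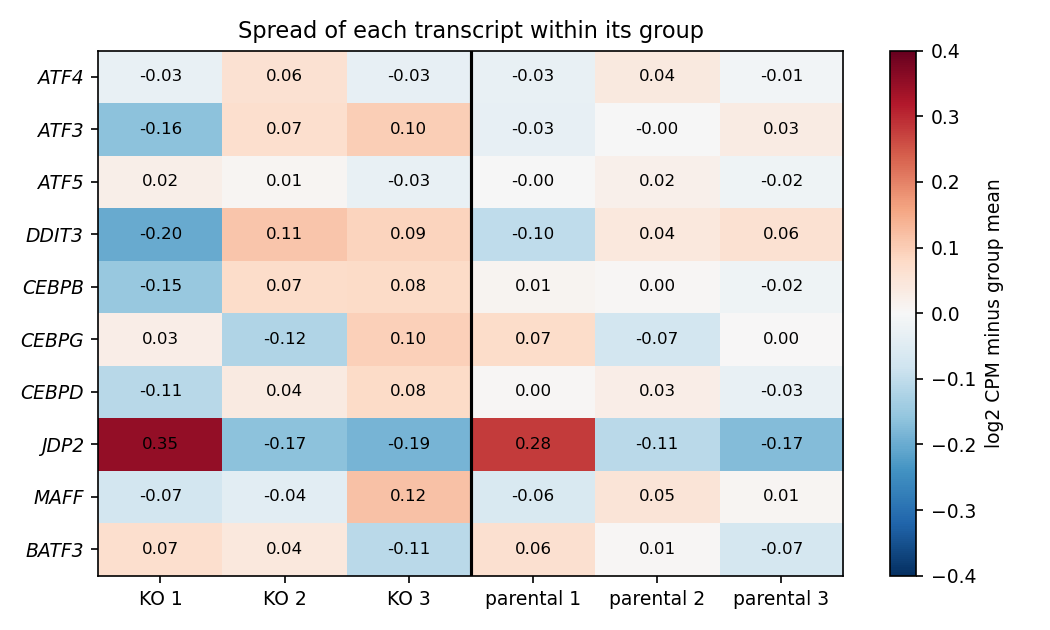
Log2 CPM of each bZIP transcript minus the mean of its own group, in every library, on a colour scale where blue is below and red above the mean. ATF4 KO replicate 1 was below its group for DDIT3 (-0.20), ATF3 (-0.16), CEBPB (-0.15) and CEBPD (-0.11), while JDP2, with few counts, was highest in replicate 1 of each group.

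The promoter matches were also counted across the tested genes, as a description made after the data were seen. Of the 74 tested genes with TGATGCAA in a RefSeq window, JDP2 and CEBPG among them, 33 (44.6%) were lower in ATF4 KO and 8 (10.8%) were higher. CEBPD and BATF3 were not among these 74 genes. Whether a window of either was part of this count was not checked. Among all 10956 tested genes with a window, 22.6% were lower and 23.9% were higher. The median log2 fold change was -0.13 for the 74 genes and 0.01 for all genes with a window. The lowest after JDP2 were CHAC1, a glutathione-degrading enzyme (-2.35), and BCAT1, a branched-chain amino acid transaminase (-1.31), both named after their values were seen. For the looser TGATGNAA, 29.3% of 304 genes were lower and 18.8% higher. Of 784 genes with an AP-1 site, 24.5% were lower and 20.4% higher, a smaller difference from all genes with a window in the same direction. Of 417 genes with a CRE, 17.7% were lower and 26.9% higher, and of 30 with the C/EBP palindrome, 20.0% were lower and 16.7% higher.

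**Figure D5:**
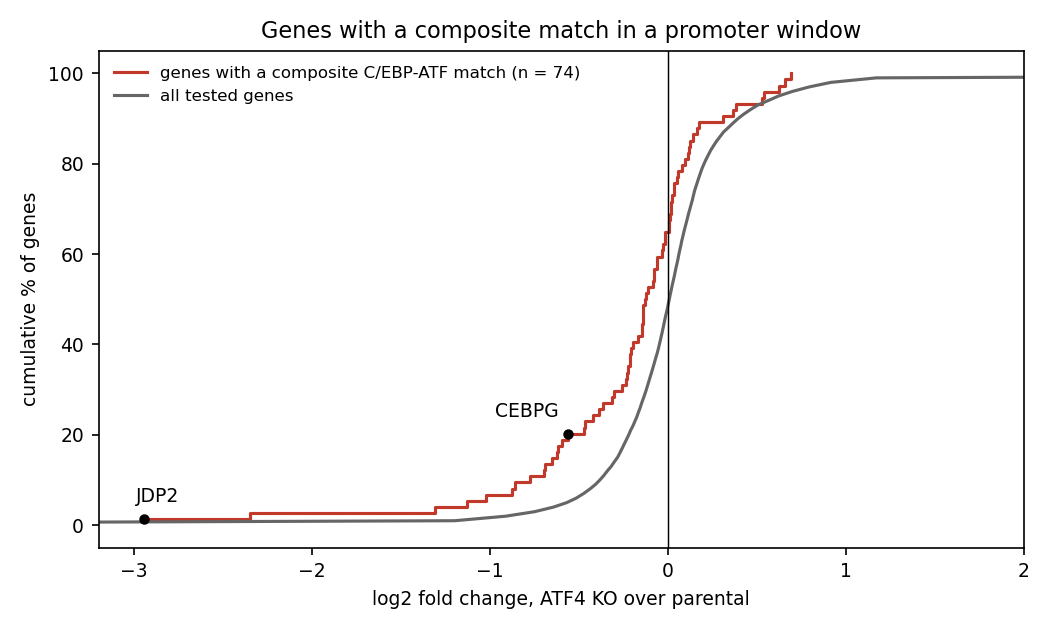
Cumulative share (%) of genes by log2 fold change, ATF4 KO over parental, for the 74 tested genes with the strict composite match in a promoter window (red) and all 15321 tested genes (grey), with JDP2 and CEBPG marked. The red line runs left of the grey one below 0, with a median of -0.13 against 0.0077; values beyond the axis limits are not drawn.

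Beyond the members, 40 of 44 other human bZIP factors were tested, of which 14 were lower, 6 higher and 20 not called, with a median log2 fold change of -0.08. Over all tested genes 20.8% were lower and 21.2% higher. The count of higher factors was 3 without parental replicate 1. The 4 with the smallest p were CREB3L2, a membrane-bound stress factor (-0.36, edgeR adjusted p = 1.16e-14), BACH1, a haem-regulated repressor that uses small MAF partners (-0.47, adjusted p = 6.97e-13), CREBRF (-0.50, adjusted p = 1.71e-12) and CREBL2 (-0.32, adjusted p = 7.57e-12). BACH1 lay among neighbours on chromosome 21 with a median of -0.32. By class, 3 of 8 tested AP-1 factors were lower and 3 higher, 3 of 6 other MAF factors were lower and 1 higher, and 0 of 6 ATF and CREB factors were lower and 1 higher. Of the PAR and E4BP4 factors 2 of 4 were lower, of the membrane-bound factors 2 of 7, of the CNC and BACH factors 1 of 5 with 1 higher, of the unclassed factors 2 of 3, and the 1 other C/EBP gene tested was lower.

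Of 14 genes known to respond to ATF4 with a C/EBP partner, 12 were tested, 7 were lower, 3 higher and 2 not called, with a median log2 fold change of -0.44, against the same 20.8% lower and 21.2% higher over all tested genes. The 4 with the smallest p were NUPR1, a stress-induced chromatin protein (-3.18, edgeR adjusted p = 4.54e-46), TRIB3, a pseudokinase that DDIT3 and ATF4 induce (-0.68, adjusted p = 1.09e-26), HERPUD1, a protein of endoplasmic reticulum degradation (-0.42, adjusted p = 6.81e-17), and ERO1A, an oxidase of the endoplasmic reticulum (0.28, adjusted p = 9.23e-12). ERO1A, SESN2 (0.13, adjusted p = 0.0358) and VLDLR (0.11, adjusted p = 0.00899) were the 3 higher genes, and the count of higher genes was 1 without ATF4 KO replicate 3 and 1 without parental replicate 1. The eIF2 phosphatase subunit PPP1R15A (-0.04, adjusted p = 0.391) and the mTORC1 inhibitor DDIT4 (0.02, adjusted p = 0.645) did not pass the test. ASNS, asparagine synthetase, had 3, 2 and 1 counts in ATF4 KO samples against 13, 5 and 8 counts in parental samples and was filtered out, and FGF21 had 0 counts in every sample.

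The genes most like ATF4 across the 6 samples, by Pearson r of log2 CPM among 9377 tested genes averaging 10 CPM or more, were LINC00662 (r = 0.998), ZNF114 (0.998), KLC4 (0.998), SERGEF (0.996) and ESS2 (0.996). These correlations are a description over 6 libraries that also differ in group.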

How the data were processed

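RNA from 3 ATF4 KO and 3 parental RCC4 samples was made into libraries with a strand-specific mRNA kit, per the labels. The deposited values are raw counts of reads per gene. The authors' processing notes name bcl2fastq 2.20, cutadapt, STAR, HTSeq and the build GRCh38, and neither the annotation release nor the strand setting is given in the sources used here. Reads shared between genes may therefore be missing from overlapping genes.

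Symbols were matched for 60370 of 60683 identifiers, and coordinates come from GENCODE 29 (GRCh38). In R 4.3.3, genes kept by filterByExpr were scaled by TMM and compared with edgeR 4.0.16 (quasi-likelihood F test, robust, no replicate term), with Benjamini-Hochberg adjustment over all tested genes and a threshold of 0.05. SE values are those implied by the F statistic. CPM are TMM-scaled, and levels between genes are per kilobase of exon union. Depth per sample is given in counts, and the 3-count floor covers counting error only. Alternatives were limma-voom (3.58.1), DESeq2 (1.42.0), other scalings and filters, a replicate block, each library left out, and removal of the median log2 fold change of genes within 10 Mb (at least 10 neighbours). The scripts were tested on simulated data.

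The members and lists were chosen with earlier results of these data known. Named genes were the members, the 4 smallest p of each list and target genes behind main counts of 5 or fewer. The 5 genes most like ATF4 and genes overlapping a member were named too. Genes behind the class counts of other bZIP factors were not all named. The motif counts, the CEBPD to CEBPB ratio and the strand check were added after the data were seen.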

Additional observations from a re-analysis of the deposited data

How the results depend on the processing

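Over all alternatives the number of members lower in ATF4 KO ran between 6 and 8, and 135 of the 140 alternative log2 fold changes kept their side of the threshold, and among called members also their direction (CEBPD, not called, lay on either side of 0). Of the other 5, ATF3 came past the threshold in 4 and ATF4 turned round in 1. With the median of neighbouring genes removed, ATF4 turned to 0.0777 (edgeR adjusted p = 0.0328) and was the 1 member called higher, 3 other bZIP factors were called higher in place of 6, and 1 target gene in place of 3. Leaving out each replicate in turn gave 3 to 6 other bZIP factors higher and 1 to 3 target genes higher. In the fit with a replicate block, ATF3 stood at -0.13 (edgeR adjusted p = 0.00215) and 8 members were lower. The block changed no other member's call. Over all tested genes, the deviations of same-numbered samples correlated between -0.028 and 0.0063, and whether these samples shared a batch was not tested. Of 89 alternative values of the differences in share, 17 moved by more than the spread between replicates. A further 3 changed sign, all of them for ATF5, whose share differed by -0.0828 percentage points: 0.109 among partners only, 0.0126 without ATF4 KO replicate 2 and 0.0388 without ATF4 KO replicate 3. With total counts alone as the scaling, 42.2% of all calls were lower, against 49.5% with TMM. The cause of these shifts was not tested beyond the construction of each alternative. JDP2, at 12 to 16 counts in ATF4 KO samples, is the member whose fold change depth limits most.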
